A study of Homo sapiens with 12 samples.

Results

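Transcripts of 10 genes that extracellular signal-regulated kinase (ERK) signalling switches on, most of which encode brakes on that pathway, were followed in BT-549 and SUM149 cells with and without silencing of MUC1. They were the phosphatases DUSP4, DUSP5 and DUSP6, the Sprouty genes SPRY1, SPRY2 and SPRY4, their relatives SPRED1 and SPRED2, and the ETS transcription factors ETV4 and ETV5. The genes were taken by symbol, through the Ensembl identifiers of the count table, and all 10 were found among its 58037 lines. All 10 had enough counts to be tested in both lines. RNA sequencing had been done on 12 libraries in 4 groups of 3. BT-549 and SUM149 are established human breast cancer lines of the triple-negative kind, which lacks the estrogen receptor, the progesterone receptor and HER2. Each line stably expressed either CshRNA, a control hairpin, or MUC1shRNA, a hairpin directed against MUC1-C, the C-terminal subunit of the mucin MUC1. BT-549 was cultured in RPMI1640 with insulin, and SUM149 in Ham's F-12 with insulin and hydrocortisone, so line and medium cannot be told apart. The BT-549 controls are called vector in their descriptions and CshRNA in their titles. It is not said whether the 3 sets of a group are separate hairpin introductions or parallel cultures, and all p-values refer to the spread among those libraries alone.

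Growth factor receptors activate RAS, which sets off the kinase relay of RAF, MEK and ERK. Active ERK enters the nucleus and switches on genes whose products act back on the relay. The DUSP proteins remove phosphate from ERK itself, DUSP5 in the nucleus and DUSP6 in the cytoplasm. Sprouty and SPRED proteins act higher up, at the step where receptors activate RAS or RAF, and SPRED proteins do so by bringing the RAS inactivator neurofibromin to the membrane. ETV4 and ETV5 are not brakes but transcription factors that carry the output of the pathway. Their transcripts are kept off by the repressor CIC, which ERK signalling inactivates. Transcript levels of these genes are often read as a gauge of ERK output, although phosphorylated ERK was not measured here.

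Promoter sequence in the RefSeq table of GRCh38.p14 covered 6 of the 10 genes, SPRY1, SPRY2, SPRY4, SPRED1, SPRED2 and DUSP6, with 10 windows of 300 bases (250 before and 50 after a start site). The 150 bases just before a start site are shown for SPRY2, which had the largest fall of the 10 genes in SUM149, and for SPRY1, which passed the test of silencing in neither line. For each, the outermost of its start sites in the table was taken, whose stretch overlaps no exon of GENCODE 29. Capitals mark GGAA or its reverse complement TTCC, the core letters that ETS factors bind.
SPRY2, GRCh38.p14 chr13:80341127-80341276, minus strand: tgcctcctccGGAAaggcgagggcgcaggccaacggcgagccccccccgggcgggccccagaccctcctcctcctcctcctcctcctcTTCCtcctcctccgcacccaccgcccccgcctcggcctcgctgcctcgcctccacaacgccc
SPRY1, GRCh38.p14 chr4:123396645-123396794, plus strand: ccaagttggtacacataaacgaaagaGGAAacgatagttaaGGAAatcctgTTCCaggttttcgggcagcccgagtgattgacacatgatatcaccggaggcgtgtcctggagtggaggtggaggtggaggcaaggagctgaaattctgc
The SPRY2 stretch held 2 such cores with 76.0% G and C, and the SPRY1 stretch held 3 with 50.7%. Counts varied among the start sites of a gene. The other two SPRY2 stretches held 4 and 1 cores (62.7% and 42.7% G and C), and the other SPRY1 stretch held 1 (80.7%). Over the same 150 bases, all 35116 RefSeq windows had a median of 2 cores and 80.3% held at least 1, and the 2 stretches shown are near that median.

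Longer motifs were searched on both strands of the 10 windows. The CIC octamers TGAATGAA and TGAATGGA, held by 1.65% and 1.03% of all windows, had no match in the members' windows. The ETS octamer CCGGAAGT, held by 4.14% of all windows, had none either. The AP-1 letters TGANTCA, held by 7.71% of all windows, matched in 1 window, that of SPRED2's second start site, at -6 and at +35 from the start. Its sequence up to the first match is shown because it was the only member window with any of these longer motifs, the match being in capitals.
SPRED2, GRCh38.p14 chr2:65366778-65366824, minus strand: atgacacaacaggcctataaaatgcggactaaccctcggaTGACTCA
The letters describe the sequence only. Binding by any factor was not measured, and the counts do not tell which start site was used.

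Library size ran from 16332364 to 21248768 counts in BT-549. In SUM149 it was 19392422 to 24140623 with CshRNA and 7931614 to 9623924 with MUC1shRNA, so depth and arm cannot be told apart there. Levels are CPM, a gene's counts scaled to a common library total by TMM over all 12 libraries. MUC1 lay at 51.9, 53.7 and 54.3 CPM in the BT-549 controls and at 3.60, 6.02 and 4.28 CPM in the silenced libraries. In SUM149 it lay at 16.4, 16.6 and 12.1 CPM against 1.06, 0.334 and 0.482 CPM, so every library matched its label. The epithelial markers EPCAM, CDH1 and KRT19 stayed at or below 1.72 CPM in every BT-549 library and lay at 125 CPM or above in every SUM149 library. The others on that list, KRT8 and KRT18, were expressed in both lines. After silencing, mean KRT18 was 655 CPM in BT-549 against 427 CPM in SUM149, and mean KRT8 was 282 against 588 CPM. In SUM149, ESR1 was at 2.11 to 5.01 CPM, although the label calls the line negative for the receptor. ERBB2, which encodes HER2, had means of 48.5 CPM in BT-549 controls and 46.5 CPM after silencing. In SUM149 its means were 58.6 and 36.6 CPM. The highest group mean of PGR, the progesterone receptor gene, was 0.517 CPM, in SUM149 controls. Of the 6 leukocyte markers, CD3E was at 0 in all 12 libraries, and the summed level of the list was 2.83 to 8.37 CPM. The 3 endothelial markers summed to at most 0.103 CPM in BT-549, but to 26.7 to 30.0 CPM in SUM149 controls and 9.06 to 10.6 CPM in silenced SUM149, nearly all from PECAM1, with CDH5 at or near 0. The sum of the 3 basal markers also fell in SUM149, at 307 to 342 CPM with CshRNA and 137 to 144 CPM with MUC1shRNA. KRT5 and TP63 fell, while KRT14 rose from a mean of 0.874 CPM to 1.87 CPM. In BT-549 the 5 epithelial markers summed to 318 to 368 CPM with CshRNA and 792 to 1031 CPM with MUC1shRNA, carried by KRT8 and KRT18. The 4 mesenchymal markers summed to 816 to 915 CPM in SUM149 controls and 3032 to 3409 CPM after silencing, nearly all of it FN1. In BT-549 they summed to 3168 to 3683 CPM with CshRNA and 3370 to 4395 CPM with MUC1shRNA. The 4 fibroblast markers were high in BT-549, at 1245 to 1342 CPM with CshRNA and 1560 to 1641 CPM with MUC1shRNA, from COL1A1 and COL3A1. In SUM149 they summed to 33.2 to 43.0 CPM and 26.8 to 29.7 CPM. The part of these markers in the results below was not tested. In bulk samples, fewer cells that express a gene and less RNA per cell cannot be told apart.

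One library of each line's controls and 1 silenced BT-549 library stood apart. In SUM149, CshRNA 3 differed from its replicates by a chi-square per degree of freedom of 13.5 and 10.6, against 3.80 between the other two. All 10 feedback genes lay below their group mean in that library (median -0.15 on the log2(CPM + 1) scale) and above it in CshRNA 1 and CshRNA 2, while the median deviation of all genes was 0. In BT-549, CshRNA 3 (14.5 and 13.7, against 4.43) and MUC1shRNA 2 (8.53 and 8.33, against 1.85) stood apart, and SPRY4 was the highest of its arm in each. Results that rest on these libraries are given with and without them.

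**Figure D1:**
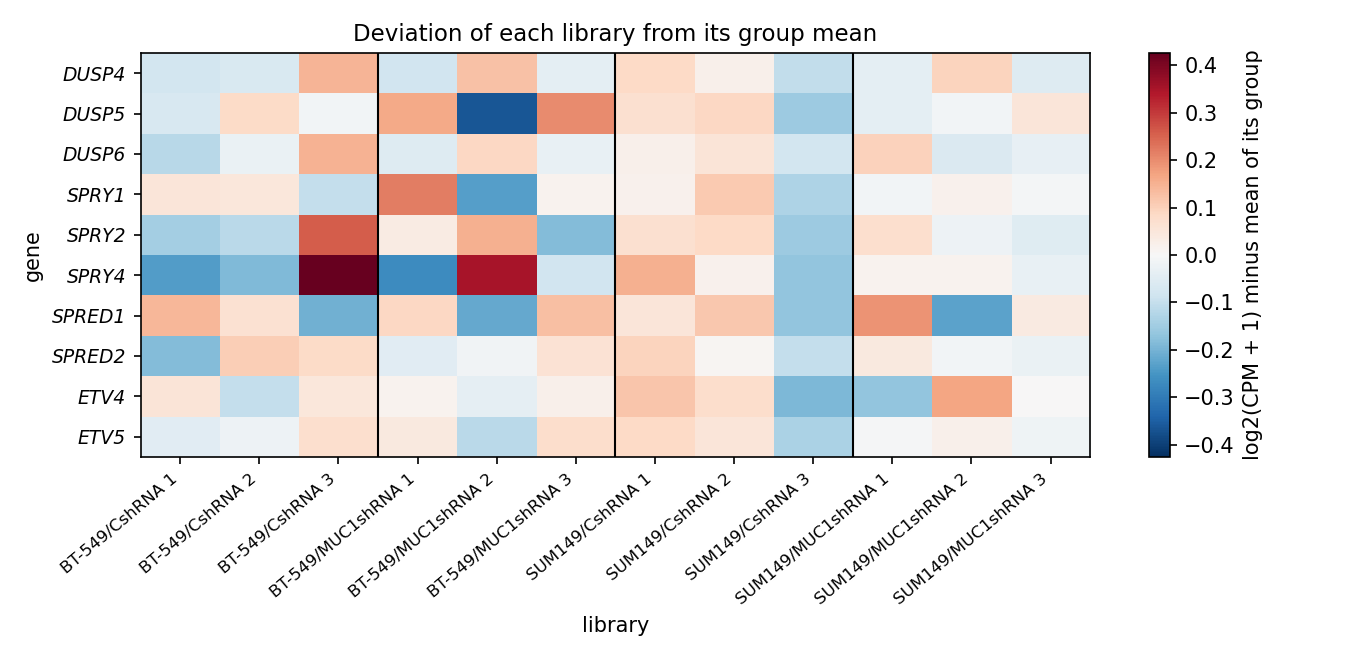
Each cell is 1 library's log2(CPM + 1) level of a gene (rows) minus the mean of its group of 3 libraries (columns grouped by line and hairpin, black lines between groups), red above and blue below the mean. The column of SUM149 CshRNA 3 is blue in all 10 rows, and SPRY4 has its highest values in BT-549 CshRNA 3 and MUC1shRNA 2.

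The first comparison asked how the feedback genes answered MUC1 silencing in SUM149. DUSP6, SPRY2, SPRED1, SPRED2, ETV4 and ETV5 fell there, and DUSP5 rose. Thus 1 gene rose, 6 fell and 3 were not past the test (edgeR's quasi-likelihood test, Benjamini-Hochberg adjusted p below 0.05 over all genes). The median log2 fold change of the 10 was -0.30, against -0.03 over all 14178 tested genes. Silencing changed much of the transcriptome of this line, with 56.5% of the tested genes called, 27.6% higher and 28.9% lower, and the 10 are read against that background. The silenced libraries lay wholly to 1 side of the controls for 6 of the 10 genes, and for 62.6% of all tested genes.

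Among the phosphatases of SUM149, DUSP5 (ENSG00000138166.5, GRCh38 chromosome 10, 110497838 to 110511544, plus strand), which acts on ERK in the nucleus, was at 14.5, 14.7 and 12.3 CPM in the controls. With MUC1shRNA it was at 48.5, 49.5 and 51.8 CPM. All silenced libraries lay above all controls, and the means stood 3.61-fold apart. Its log2 fold change was 1.86 (SE 0.09, adjusted p = 3.8e-09), the only rise among the 10 genes.

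DUSP6 (ENSG00000139318.7, chromosome 12, 89347232 to 89353271, minus strand), the cytoplasmic ERK phosphatase, went the other way. It was at 228, 233 and 213 CPM in the SUM149 controls and at 128, 114 and 116 CPM after silencing. No silenced library reached the lowest control, and the log2 fold change was -0.90 (SE 0.07, adjusted p = 2.2e-07). Of the exon bases of DUSP6, 40.5% are also exonic in AC024909.2 on the opposite strand, and it is not known whether the authors' counting used strand.

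DUSP4 (ENSG00000120875.8, chromosome 8, 29333064 to 29350668, minus strand), a nuclear phosphatase of ERK and other MAP kinases, was at 265, 254 and 233 CPM in the controls and 249.2, 274 and 247 CPM after silencing. The arms overlapped, and the log2 fold change of 0.05 (SE 0.07) was not past the test (adjusted p = 0.59). The 3 phosphatases thus gave a rise, a fall and a value near 0 in the same libraries.

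SPRY2 (ENSG00000136158.11, chromosome 13, 80335976 to 80340951, minus strand), whose promoter stretch is shown above, fell the most. Its level was 69.96, 70.8 and 59.8 CPM in the SUM149 controls and 23.5, 21.95 and 21.5 CPM with MUC1shRNA. Silenced libraries lay far below every control, with means 3.00-fold apart and a log2 fold change of -1.57 (SE 0.09, adjusted p = 1.5e-08).

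The other Sprouty genes were not past the test. SPRY4 (ENSG00000187678.8, chromosome 5, 142310427 to 142326455, minus strand) was at 71.8, 65.4 and 57.3 CPM in the controls and 64.1, 64.1 and 61.98 CPM after silencing, with the silenced libraries inside the range of the controls. Its log2 fold change was -0.02 (SE 0.09, adjusted p = 0.84). SPRY1 (ENSG00000164056.10, chromosome 4, 123396795 to 123403760, plus strand) was barely expressed in SUM149. It had 57 to 78 counts per control library and 22 to 27 per silenced library, 2.60 to 3.26 CPM in all, and its log2 fold change of -0.16 (SE 0.21, adjusted p = 0.54) came with the widest error of the 10.

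Both SPRED genes fell in SUM149. SPRED1 (ENSG00000166068.12, chromosome 15, 38252326 to 38357249, plus strand), which recruits neurofibromin to RAS, was at 109, 114 and 93.3 CPM in the controls and 81.3, 60.6 and 73.1 CPM after silencing. The log2 fold change was -0.54 (SE 0.10, adjusted p = 5.2e-04), with no overlap between the arms. SPRED2 (ENSG00000198369.9, chromosome 2, 65310851 to 65432637, minus strand) was at 125, 118 and 109 CPM against 100.05, 96.5 and 95.3 CPM. Its fall was small, at -0.26 (SE 0.07, adjusted p = 0.0068), and its arms did not overlap either.

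The ETS factors fell by unequal amounts. ETV5 (ENSG00000244405.7, chromosome 3, 186046308 to 186110318, minus strand) was at 149.8, 146 and 128 CPM in the SUM149 controls and within 82.3 to 84.6 CPM in the silenced libraries. The silenced libraries lay close together and below all controls, a log2 fold change of -0.75 (SE 0.07, adjusted p = 2.1e-06). ETV4 (ENSG00000175832.12, chromosome 17, 43527844 to 43579620, minus strand) was at 119, 115 and 95.5 CPM against 76.5, 96.7 and 86.1 CPM. Here MUC1shRNA 2 lay just above CshRNA 3, so the arms overlapped. ETV4 fell by 0.33 on the log2 scale (SE 0.10, adjusted p = 0.012), and the call was lost without MUC1shRNA 1 (adjusted p = 0.062) or MUC1shRNA 3 (0.051).

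Leaving out SUM149 CshRNA 3, the control in which all 10 genes were low, kept all 7 calls. Without it the log2 fold changes were 1.78 for DUSP5, -0.95 for DUSP6, -1.66 for SPRY2, -0.63 for SPRED1, -0.32 for SPRED2, -0.43 for ETV4 and -0.83 for ETV5. Each of the 6 falls was larger without it, and DUSP4 and SPRY4 remained under the test at -0.01 and -0.11. Because that control was the lowest for all 10 genes, leaving it out raised the control means. The larger falls therefore add no support.

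**Figure D2:**
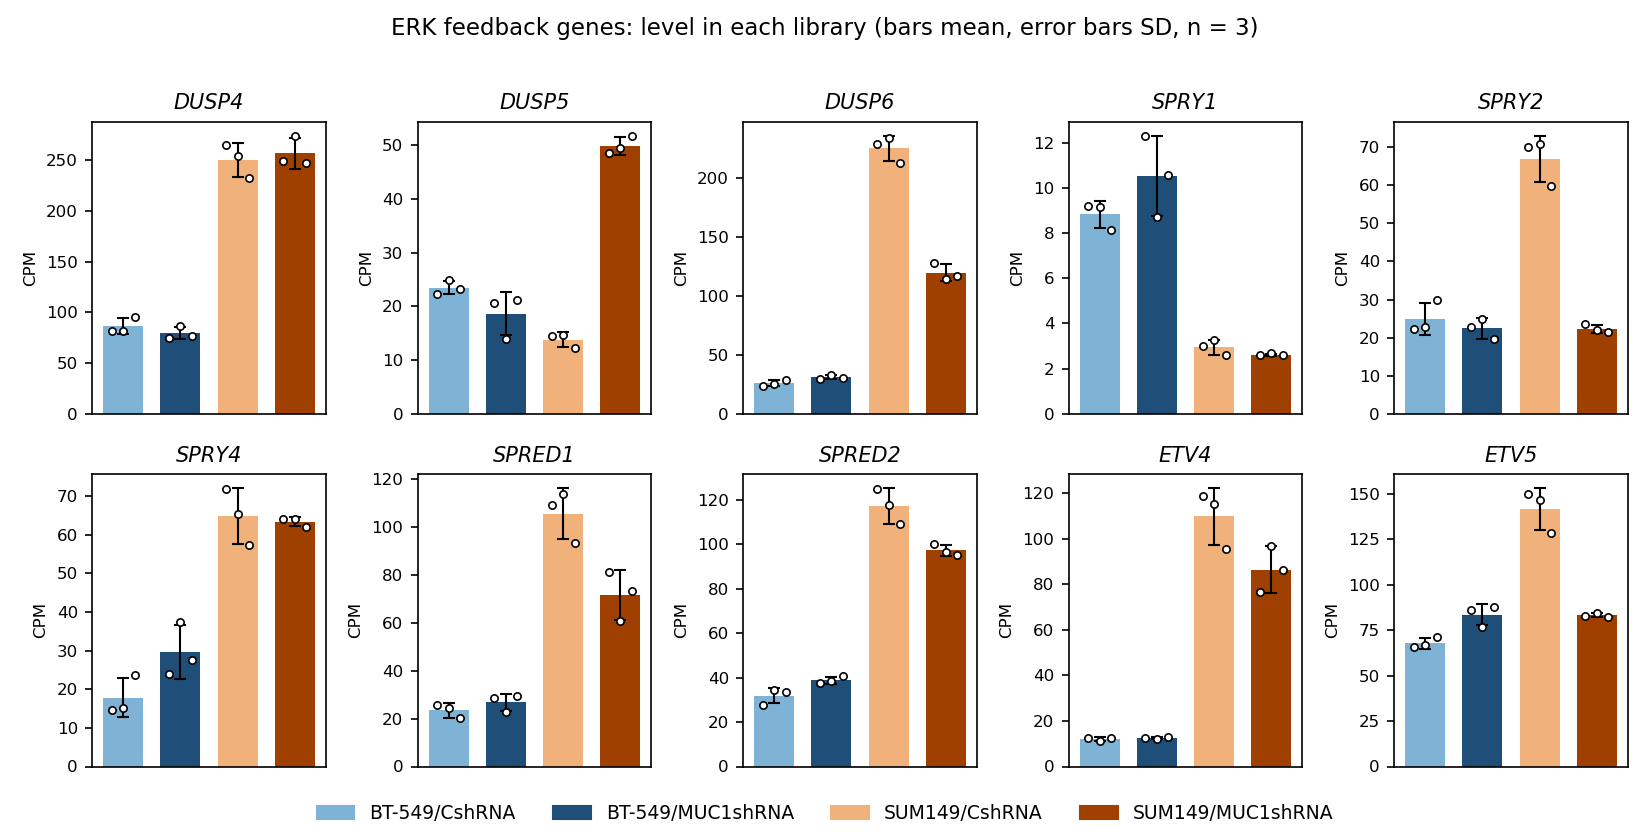
Level in CPM (vertical axes, 1 panel per gene, each from 0 with its own scale) in the 4 groups, with bars as means of 3 libraries, error bars as SD and points as libraries. In SUM149 the DUSP5 mean stands at 13.8 with CshRNA and 49.9 with MUC1shRNA, and the SPRY2 mean at 66.9 and 22.3, the latter close to both BT-549 means.

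The second comparison asked the same of BT-549, where the changes were small. SPRY4, SPRED2 and ETV5 rose, 0 fell, and 7 were not past the test. The median log2 fold change was 0.22, against -0.01 over all 13200 tested genes. In this line 33.3% of the tested genes were called, 16.8% higher and 16.5% lower, so 3 of 10 is near the background share. Arms without overlap were seen for 5 of the 10, the 3 called genes and DUSP5 and DUSP6, and for 47% of all tested genes.

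SPRY4, which was not called in SUM149, had the largest value in BT-549. Its controls were at 14.6, 15.2 and 23.8 CPM and its silenced libraries at 24.03, 37.5 and 27.5 CPM. The highest control, CshRNA 3, lay just under the lowest silenced library, and the highest silenced library was MUC1shRNA 2. The log2 fold change was 0.72 (SE 0.21, adjusted p = 0.024). With both of the libraries that stood apart removed it was 0.79 (adjusted p = 1.9e-05), and the call was lost without MUC1shRNA 2 (0.054), CshRNA 1 (0.101) or CshRNA 2 (0.071).

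ETV5 was at 65.5, 66.75 and 71.2 CPM in the BT-549 controls and at 85.8, 76.9 and 87.8 CPM after silencing. All silenced libraries lay above all controls, and ETV5 rose by 0.30 (SE 0.07, adjusted p = 0.0088). It was the only one of the 3 that kept its call in all 15 alternative settings. SPRED2 was at 27.9, 34.3 and 33.7 CPM against 37.6, 38.5 and 40.7 CPM, a rise of 0.28 (SE 0.09, adjusted p = 0.036) that was lost without MUC1shRNA 1 (0.075), MUC1shRNA 3 (0.120) or CshRNA 1 (0.109). Both genes fell in SUM149, so 2 of the 10 were called in opposite directions in the lines, and 0 in the same direction. Of the 12125 genes tested in both lines, 9.93% were called in opposite directions and 11.1% in the same direction.

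Of the BT-549 phosphatases, DUSP6 was at 23.7, 25.3 and 28.7 CPM in the controls and 29.6, 32.8 and 30.1 CPM after silencing. The arms did not overlap, and the log2 fold change of 0.25 (SE 0.09) missed the threshold at adjusted p = 0.059. It passed in 4 of 15 alternatives, among them without CshRNA 3 (0.014) and without both libraries that stood apart (0.0088). DUSP5 was at 22.3, 24.9 and 23.3 CPM against 20.6, 14.0 and 21.2 CPM, the lowest being MUC1shRNA 2. Its value of -0.34 (SE 0.14, adjusted p = 0.088) was -0.17 without both libraries that stood apart (adjusted p = 0.14). It passed in 1 of 15 alternatives, with no filter (-0.33, adjusted p = 0.0091). DUSP4 lay at 81.5 to 95.3 CPM and 75.1 to 86.9 CPM in the arms, which overlapped (-0.12, adjusted p = 0.29).

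The remaining BT-549 genes had overlapping arms. SPRY1 was at 8.15 to 9.18 CPM in the controls and 8.73 to 12.3 CPM after silencing, a value of 0.26 (SE 0.14, adjusted p = 0.18). It passed without MUC1shRNA 2 (0.039) and without both libraries that stood apart (0.049). The values of SPRY2 (-0.16, SE 0.13), SPRED1 (0.20, SE 0.12) and ETV4 (0.05, SE 0.09) were not past the test in any of the 15 alternatives.

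**Figure D3:**
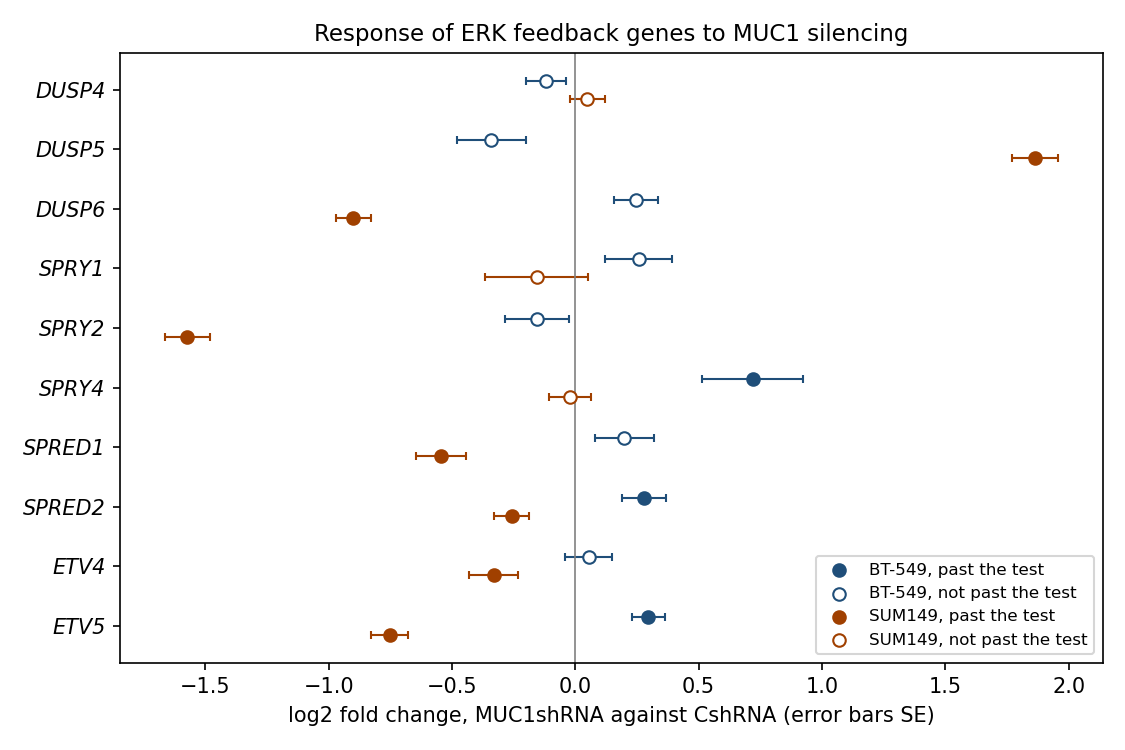
Log2 fold change of MUC1shRNA against CshRNA (horizontal axis) for each gene (vertical axis), in BT-549 in blue and SUM149 in orange, with filled points past the test, open points not past it and error bars as SE. DUSP5 lies at 1.86 and SPRY2 at -1.57 in SUM149, while every BT-549 point lies between -0.34 and 0.72.

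Whether the lines responded differently was tested as the difference of their log2 fold changes, BT-549 minus SUM149, in 1 fit over the 12 libraries. Of the 10 genes 8 passed, 7 with the higher response in BT-549 and 1, DUSP5, with the lower. Among all 15649 tested genes 39.6% passed. The difference was -2.19 for DUSP5 (SE 0.18, adjusted p = 2.8e-07), 1.43 for SPRY2 (SE 0.17, 9.3e-06), 1.16 for DUSP6 (SE 0.11, 1.1e-06) and 1.06 for ETV5 (SE 0.10, 1.2e-06). It was smaller for SPRED1 (0.76, SE 0.18), SPRY4 (0.76, SE 0.24), SPRED2 (0.55, SE 0.11) and ETV4 (0.40, SE 0.15, adjusted p = 0.043). The ETV4 difference was lost in 15 of 20 alternatives, with adjusted p from 0.0058 to 0.116. The SPRY4 difference was lost without BT-549 MUC1shRNA 2 (adjusted p = 0.071), CshRNA 1 (0.072) or CshRNA 2 (0.063). DUSP4 (-0.15, adjusted p = 0.30) and SPRY1 (0.43, adjusted p = 0.16) did not pass. The silencing itself was unequal, with MUC1 means 11.5-fold apart in BT-549 and 24.0-fold apart in SUM149. Its part in these differences was not tested.

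The lines also differed in their starting levels. Under CshRNA all 10 genes passed the test between the lines, 8 lower in BT-549 and 2 higher, and the groups did not overlap for any of them. Such differences were common, since 83% of all tested genes passed and the groups did not overlap for 84%. ETV4 was lower in BT-549 by the largest amount, with 11.15 to 12.5 CPM there against 95.5 to 119 CPM in SUM149, a log2 difference of -3.18 (SE 0.10, adjusted p = 3.4e-13). DUSP6 followed at -3.12 (SE 0.08, 2.0e-14). The values of SPRED1, SPRED2, SPRY4, DUSP4, SPRY2 and ETV5 ran from -2.17 to -1.06. SPRY1 was the main exception, at 8.15 to 9.18 CPM in BT-549 and 2.60 to 3.26 CPM in SUM149 (1.58, SE 0.15, adjusted p = 9.8e-08), and DUSP5 was higher in BT-549 by 0.76 (SE 0.13).

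After silencing, the same comparison passed for 8 of the 10 genes, 1 higher and 7 lower in BT-549, with 79.7% of all tested genes called. The groups did not overlap for 8, and for 81.5% of all tested genes. SPRY2, at 19.5 to 24.95 CPM in BT-549 and 21.5 to 23.5 CPM in SUM149, no longer passed (0.01, SE 0.13, adjusted p = 0.92). ETV5 did not pass either, with 76.9 to 87.8 CPM against 82.3 to 84.6 CPM (0.003, SE 0.07, adjusted p = 0.97). DUSP5 changed sides, from higher in BT-549 under CshRNA to lower under MUC1shRNA (-1.43, SE 0.13, adjusted p = 5.1e-08). ETV4 (-2.78, SE 0.11) and DUSP6 (-1.95, SE 0.08) stayed lower in BT-549, and SPRY1 stayed higher (2.00, SE 0.17). These contrasts share libraries with the ones above.

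Between genes, levels were compared per kilobase of exon (CPM per kb), and neighbours in the order were taken as separated where their means ± SD (n = 3) did not overlap. In BT-549 controls DUSP4 (11.9 ± 1.07) and ETV5 (11.7 ± 0.517) were highest and not separated. DUSP5 (8.99), SPRY2 (8.21), SPRED2 (6.20) and DUSP6 (5.59) followed, each overlapping its neighbour. ETV4 (3.34), SPRED1 (2.83), SPRY4 (2.72) and SPRY1 (2.23 ± 0.149) came last, again without a gap between neighbours. The highest and lowest levels stood 5.34-fold apart. With MUC1shRNA in BT-549, ETV5 (14.4) was separated from DUSP4 (10.99) and SPRY1 (2.66) was again last.

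In SUM149 controls the highest and lowest levels stood 65.2-fold apart. DUSP6 led at 48.5 ± 2.33 CPM per kb (SD, n = 3), separated from DUSP4 at 34.5 ± 2.28, which was not separated from ETV4 at 30.4 ± 3.43. ETV5 (24.4), SPRED2 (22.8) and SPRY2 (22.01) were not separated from each other and lay below ETV4. SPRED1 (12.8), SPRY4 (9.88), DUSP5 (5.29) and SPRY1 (0.745) followed, each separated from the one above. With MUC1shRNA the order in SUM149 was DUSP4 (35.4), DUSP6 (25.8), ETV4 (23.96), DUSP5 (19.1), SPRED2 (18.9), ETV5 (14.4), SPRY4 (9.65), SPRED1 (8.67), SPRY2 (7.34) and SPRY1 (0.662). DUSP5 thus went from rank 9 to rank 4 and SPRY2 from rank 6 to rank 9. There DUSP6 and ETV4, DUSP5 and SPRED2, SPRY4 and SPRED1, and SPRED1 and SPRY2 were not separated.

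Summed over the 10 genes, levels were 305, 316 and 346 CPM in BT-549 controls and 349, 355 and 357 CPM after silencing. In SUM149 the sums were 1155, 1135 and 1004 CPM against 856, 865 and 838 CPM. Silenced libraries lay above the controls in BT-549, narrowly for CshRNA 3, and below them in SUM149.

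The genes around the feedback loop were taken from 5 lists of 76 different genes in all, of which 73 could be tested in BT-549 and 66 in SUM149. Of these, 24 rose and 8 fell in BT-549 and 25 rose and 15 fell in SUM149, with medians of 0.04 and 0.07. Among all tested genes, 16.8% rose and 16.5% fell in BT-549, with a median of -0.01. In SUM149 27.6% of all tested genes rose and 28.9% fell, with a median of -0.03. The counts of each list below are read against these shares. The feedback genes, with 6 of 10 lower in SUM149 and a median of -0.30, are given beside the pathway genes for description only.

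The RAS-RAF-MEK-ERK relay had 10 genes higher and 1 lower of 25 in BT-549 (median 0.08), and 10 higher and 4 lower of 25 in SUM149 (median 0.06). In BT-549 the RAS relatives MRAS and RRAS rose by 1.25 (SE 0.09, adjusted p = 9.0e-06) and 0.82 (SE 0.08, 1.1e-04), and the kinase BRAF by 0.41 (SE 0.08). In SUM149, MAP2K1, which encodes MEK1, rose by 0.47 (SE 0.06, adjusted p = 3.7e-05). The ERK-activated kinase RPS6KA3 (0.49), RRAS (0.51), HRAS (0.40) and NRAS (0.25) rose there too. MAP2K2 and MAPK3, which encode MEK2 and ERK1, were not past the test in either line. For MAP2K1, 11.5% of the exon bases overlap a gene on the other strand.

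Of the other MAP kinase phosphatases, 3 rose and 2 fell of 7 tested in BT-549 (median 0.04), and 1 rose and 2 fell of 4 in SUM149 (median -0.19). DUSP7, a cytoplasmic ERK phosphatase related to DUSP6, fell in BT-549 (-0.22, SE 0.07, adjusted p = 0.041) and rose in SUM149 (0.78, SE 0.09, 7.0e-06). DUSP10, which acts on JNK and p38, did the reverse (0.75, SE 0.15, and -0.19, SE 0.07). Its level was low in BT-549, with a mean of 3.82 CPM in the controls and 6.43 CPM after silencing, against 264 and 229 CPM in SUM149. DUSP1, an immediate early phosphatase, fell in SUM149, with 39.2 ± 2.46 CPM in the controls and 23.0 ± 2.96 CPM after silencing (SD over 3 libraries), by 0.76 (SE 0.10), and its value in BT-549 was 0.04 (adjusted p = 0.90).

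Other transcripts that ERK is known to induce moved apart in SUM149, where 6 rose and 2 fell of 12 (median 0.16). CCND1, cyclin D1 of the cell cycle, went from 194 ± 6.87 CPM to 470.4 ± 5.97 CPM (SD over 3 libraries), a rise of 1.29 (SE 0.06, adjusted p = 2.3e-09). PLAUR, the urokinase receptor, rose by 1.23 (SE 0.09, 1.1e-07), and the ephrin receptor EPHA2 by 0.17 (SE 0.07, 0.045). ETV1, the third of the ETV4 and ETV5 subfamily, fell by 0.37 (SE 0.11, 0.010), and PHLDA1 by 0.73 (SE 0.09, 2.3e-05). In BT-549, 4 rose and 2 fell of 13 (median 0.05). There ETV1 rose by 1.16 (SE 0.10, adjusted p = 2.8e-05), with 13.05 ± 1.03 CPM in the controls and 29.3 ± 2.42 CPM after silencing (SD over 3 libraries), PHLDA1 rose by 0.36 (SE 0.06), and PLAUR fell by 0.28 (SE 0.06). CCND1 was at 0.18 in BT-549 (adjusted p = 0.099). For PHLDA1 and CCND1, 16.5% and 10.3% of the exon bases overlap genes on the other strand.

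The other brakes on the pathway had 6 higher and 2 lower of 18 in BT-549 (median -0.04) and 4 higher and 6 lower of 18 in SUM149 (median -0.15). ERRFI1, which inhibits the EGF receptor, fell in SUM149 by 1.19 (SE 0.07, adjusted p = 1.6e-08; 459.6 ± 29.1 CPM against 199.8 ± 8.86 CPM, SD over 3 libraries) and rose in BT-549 (0.29, SE 0.05, 0.0021). RASA1, a GTPase activator of RAS, rose in BT-549 (0.81, SE 0.08, 6.8e-05) and fell in SUM149 (-0.28, SE 0.07, 0.0049). Of its exon bases, 14.7% overlap CCNH, on the other strand. SPRED3, the third SPRED gene, fell in BT-549 (-0.51, SE 0.16, adjusted p = 0.034), and its SUM149 value of -0.59 (SE 0.31) was not past the test. CIC, the repressor of ETV4 and ETV5, was at 0.04 and 0.22 in the lines, neither past the test. Its partners ATXN1 and ATXN1L rose in both, ATXN1 by 0.90 (SE 0.11) in BT-549 and 0.37 (SE 0.08) in SUM149, and ATXN1L by 0.24 (SE 0.06) and 0.66 (SE 0.08). ERF, an ETS repressor that ERK removes from the nucleus, fell in SUM149 (-0.36, SE 0.12, adjusted p = 0.021).

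Upstream receptor tyrosine kinases had 1 higher and 2 lower of 11 in BT-549 (median -0.15) and 4 higher and 1 lower of 8 in SUM149 (median 0.42). MET, the receptor of hepatocyte growth factor, rose in both lines, by 0.55 (SE 0.10, adjusted p = 0.0025) and 0.94 (SE 0.07, 1.5e-07). FGFR1, a fibroblast growth factor receptor, rose in SUM149 by 1.29 (SE 0.11, 5.5e-07), its mean being 8.16 ± 0.210 CPM in the controls and 19.9 ± 1.797 CPM after silencing (SD over 3 libraries). In BT-549, AXL fell by 0.58 (SE 0.07, 2.7e-04) and FGFR2 by 0.66 (SE 0.12, 0.0022).

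**Figure D4:**
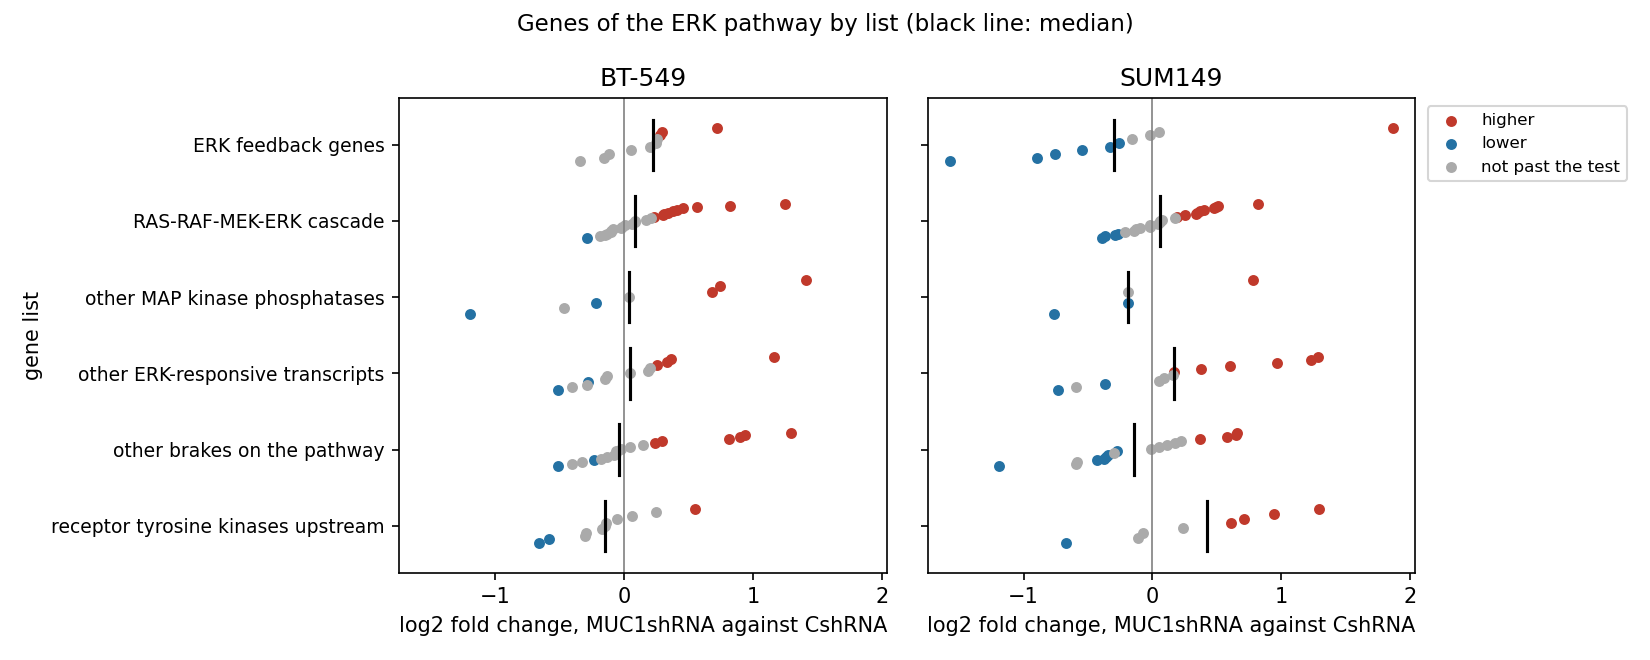
Log2 fold change of MUC1shRNA against CshRNA (horizontal axes, same scale) of each tested gene of the feedback set and of 5 pathway lists (rows), with BT-549 in the left panel and SUM149 in the right, red for higher, blue for lower and grey for not past the test, with black lines at the medians. The median of the feedback genes lies at 0.22 in BT-549 and -0.30 in SUM149, and that of the receptors at -0.15 and 0.42.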

How the data were processed

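Raw read counts per gene were deposited by the authors in 1 table, 1 column per library and without normalization. Per the submitters' processing notes, CASAVA 1.8.2, STAR 2.7.0, DESeq2 1.24.0 and GRCh38.p7 were used. Neither the counting tool nor its strand setting is known here. Per the labels' protocols, the kits were Trizol for RNA and TruSeq Stranded mRNA for libraries. Names, exon lengths and overlaps came from GENCODE 29 (GRCh38), matched for 57388 of 58037 identifiers, and 45 copies on the Y chromosome were left out.

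The lines were fitted separately in edgeR 4.0.16 (R 4.3.3) with TMM scaling, filterByExpr and the quasi-likelihood test, without a replicate block. Differences between lines used 1 fit over 12 libraries. Genes were called at a Benjamini-Hochberg adjusted p below 0.05 over all tested genes, and SE is the log2 fold change divided by the root of F. The script was tested on simulated data. Alternatives were DESeq2 1.42.0, limma-voom (limma 3.58.1), upper-quartile or RLE scaling, all genes unfiltered, genes with at least 5 CPM in 3 libraries, a replicate block and each library left out. Another alternative changed the groups in the fit. For silencing within a line the other line was added, and for the tests between lines only the groups compared were kept. Leaving out both BT-549 libraries that stood apart was chosen after seeing the data.

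The 10 genes and the pathway lists were chosen with earlier results of these data known. Named pathway genes were a fixed set of 19 plus, from each list and line, the 2 with the smallest adjusted p among called genes with at least 5 CPM in the higher arm. Some genes of the fixed set are not reported here. With 3 libraries against 3, an exact permutation test of a single value could not go below p = 0.1.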

Additional observations from a re-analysis of the deposited data

Results flagged for a closer look

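Responses to silencing differed between the lines, by the test of the difference itself (edgeR over 12 libraries, BT-549 minus SUM149, log2), for 27 of the genes named above. Of these, 8 were feedback genes, DUSP5 (-2.19), DUSP6 (1.16), SPRY2 (1.43), SPRY4 (0.76), SPRED1 (0.76), SPRED2 (0.55), ETV4 (0.40) and ETV5 (1.06). The other 19 were among the 28 pathway genes named. Many of those 28 were named for their small adjusted p in 1 line of these same data. Their share past this test is therefore no evidence about the pathway. Higher in BT-549 were the responses of ETV1 (1.55), ERRFI1 (1.499), MRAS (1.39), PHLDA1 (1.11), RASA1 (1.104), DUSP10 (0.95), DUSP1 (0.81) and ATXN1 (0.54). Lower in BT-549 were those of PLAUR (-1.49), FGFR1 (-1.42), CCND1 (-1.09), DUSP7 (-0.98), MAP2K1 (-0.59), AXL (-0.50), HRAS (-0.49), RPS6KA3 (-0.47), ATXN1L (-0.40), MET (-0.38) and EPHA2 (-0.30). Among all tested genes 39.6% passed this test. Groups of 3 libraries are too small for the test of a single outlying library.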

How the results depend on the processing

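Of 182 counts of calls under the alternatives, 178 stayed within 1.5 times the count reported, and 4 did not. Those 4 were all in BT-549, where 5 of the 10 feedback genes were called with no filter (4 higher, and DUSP5 lower) and with both libraries that stood apart left out, and 1 without CshRNA 1. Leaving out each library in turn gave 1 to 4 feedback genes and 2716 to 4470 genes called in BT-549, the lowest without MUC1shRNA 1. In SUM149 it gave 6 to 7 and 6866 to 8306, for the difference of the responses 6 to 8 and 5508 to 6420, and between the lines 10 under CshRNA and 8 under MUC1shRNA throughout. No called fold change reversed. For MUC1 and the 10 feedback genes together there were 1000 gene values under the alternatives. Of these, 960 kept their side of the threshold, 13 came to pass and 27 no longer passed, and the cause was not tested. Only 7 of the values that came to pass were of feedback genes, all for silencing in BT-549, and the rest were of MUC1. The calls between the lines held in all 21 alternatives. Upper-quartile scaling shifted the median of all genes between the lines by -0.12 under CshRNA and -0.10 under MUC1shRNA. With a replicate block by title number, 2 feedback genes were called in BT-549 (2951 genes) and 7 in SUM149 (7934 genes), 7 for the difference of the responses, and 10 and 8 between the lines. The adjusted p of SPRED2 in BT-549 was then 0.056. Same-numbered libraries did not deviate together, with correlations of 0.13, -0.32 and -0.26 in BT-549 and -0.05, 0.05 and 0.09 in SUM149. The numbers were therefore not taken to pair samples. Across the arms, the largest correlation of any pair was 0.41, between BT-549 CshRNA 3 and MUC1shRNA 2, the libraries that stood apart. Why these deviated together was not tested. Depth limits SPRY1 in silenced SUM149 most, at 22 to 27 counts per library.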
